A study of Mus musculus with 4 samples.

Results

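Genes of the mitochondrial respiratory chain and ATP synthase were followed through colon RNA-seq libraries of mice that lack the transcription factor Nkx2-2 in the gut epithelium. Members were taken by name alone, as every gene whose symbol begins with Nduf, Uqcr, Cox4 to Cox8 or Atp5, or is Sdha, Sdhb, Sdhc or Sdhd. The rule found 90 of 23699 gene rows, and no measured value entered it. By name, 42 belong to complex I, 4 to complex II, 8 to complex III, 19 to complex IV and 17 to complex V.

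The respiratory chain passes electrons from NADH and succinate to oxygen in the inner mitochondrial membrane. Complex I takes electrons from NADH, complex II takes them from succinate, complex III hands them to cytochrome c and complex IV reduces oxygen. The proton gradient that complexes I, III and IV build drives complex V, the ATP synthase. Colonocytes rely on this machinery to oxidise butyrate from bacterial fermentation. Some names under the rule are not subunits. Ndufaf1, Ndufaf2, Ndufaf3 and Ndufaf4 assist the assembly of complex I, Cox7a2l works in joining complexes into supercomplexes, and Cox4nb is only a genomic neighbour of Cox4i1. Ndufa4, named for complex I, is now counted with complex IV. Mitochondrial DNA encodes further subunits, which were not analysed here.

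The mutant group held 2 libraries from mice with both Nkx2.2 alleles floxed and 1 copy of Villin-Cre (Nkx2.2flox/flox; Villin-Cre/+). The control group held 2 libraries from mice with 1 floxed and 1 wild-type allele and no Cre (Nkx2.2flox/+). All 4 came from adults of mixed strain at 6 weeks of age, and from the first 2 cm of colon beyond the caecum. Villin-Cre acts in intestinal epithelium, whereas RNA came from the dissected colon as a whole, so other layers of the wall contributed to every value. The controls carry no Cre, so the effects of Cre and of the Nkx2-2 deletion cannot be told apart. Whether the paired libraries of each genotype stem from different mice is not given in the labels, so p-values measure only the spread between libraries, which may be technical.

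Levels are the deposited FPKM, which correct fragment numbers for transcript length and library size. Nkx2-2 itself was at 0.125 and 0.351 FPKM in mutants 1 and 2, against 0.724 and 0.609 FPKM in controls 1 and 2. Depth relative to control 1 was 0.464 in mutant 1, 1.03 in mutant 2 and 1.13 in control 2, and the median number of fragments implied for members with 1 isoform was 787, 1901, 1911 and 2160 in mutant 1, mutant 2, control 1 and control 2. The 9 epithelial markers were present in all 4 libraries, and summed to 6572 and 7428 FPKM in the mutants and 6292 and 7876 FPKM in the controls. Of these, 6 had a change below 0 and 3 above, where 82.6% of all tested genes were below 0. Epcam and Cdx2 were lower in both mutants without overlap, as were 35.1% of all tested genes. Vil1 was at 257 and 312 FPKM in the mutants and 261 and 322 FPKM in the controls. The 8 smooth muscle markers summed to 1484 and 1880 FPKM in the mutants and 2028 and 1813 FPKM in the controls, so muscle of the wall was sampled too.

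No respiratory chain gene changed between mutant and control colon at the threshold used. Of 86 members tested, 0 passed an adjusted p of 0.05 in limma (Benjamini-Hochberg over all tested genes), against 9 of 13997 genes in all, or 0.0643% (0.0357% higher and 0.0286% lower in the mutants). None had an unadjusted p under 0.05, where the share over all genes was 4.82% (0.7% higher and 4.12% lower). The smallest adjusted p of a member was 0.825. Leaving out control 1 raised the count over all genes to 119 with 0 members among them, and leaving out control 2 raised it to 356 with 1 member, Cox8b. In the authors' deposited table, 0 members passed either, against 8 of 20834 genes (0.0384%) at the adjusted threshold and 0.432% at the unadjusted. With 2 libraries against 2, an exact two-sided permutation test of a single gene cannot go below p = 0.333. The precision was not the same for all: the 95% interval of the log2 change lay within 0.5 of 0 for 45 of 86 members. The median standard error was 0.166, against 0.221 over all tested genes and 0.176 over those averaging 100 FPKM or more.

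**Figure D1:**
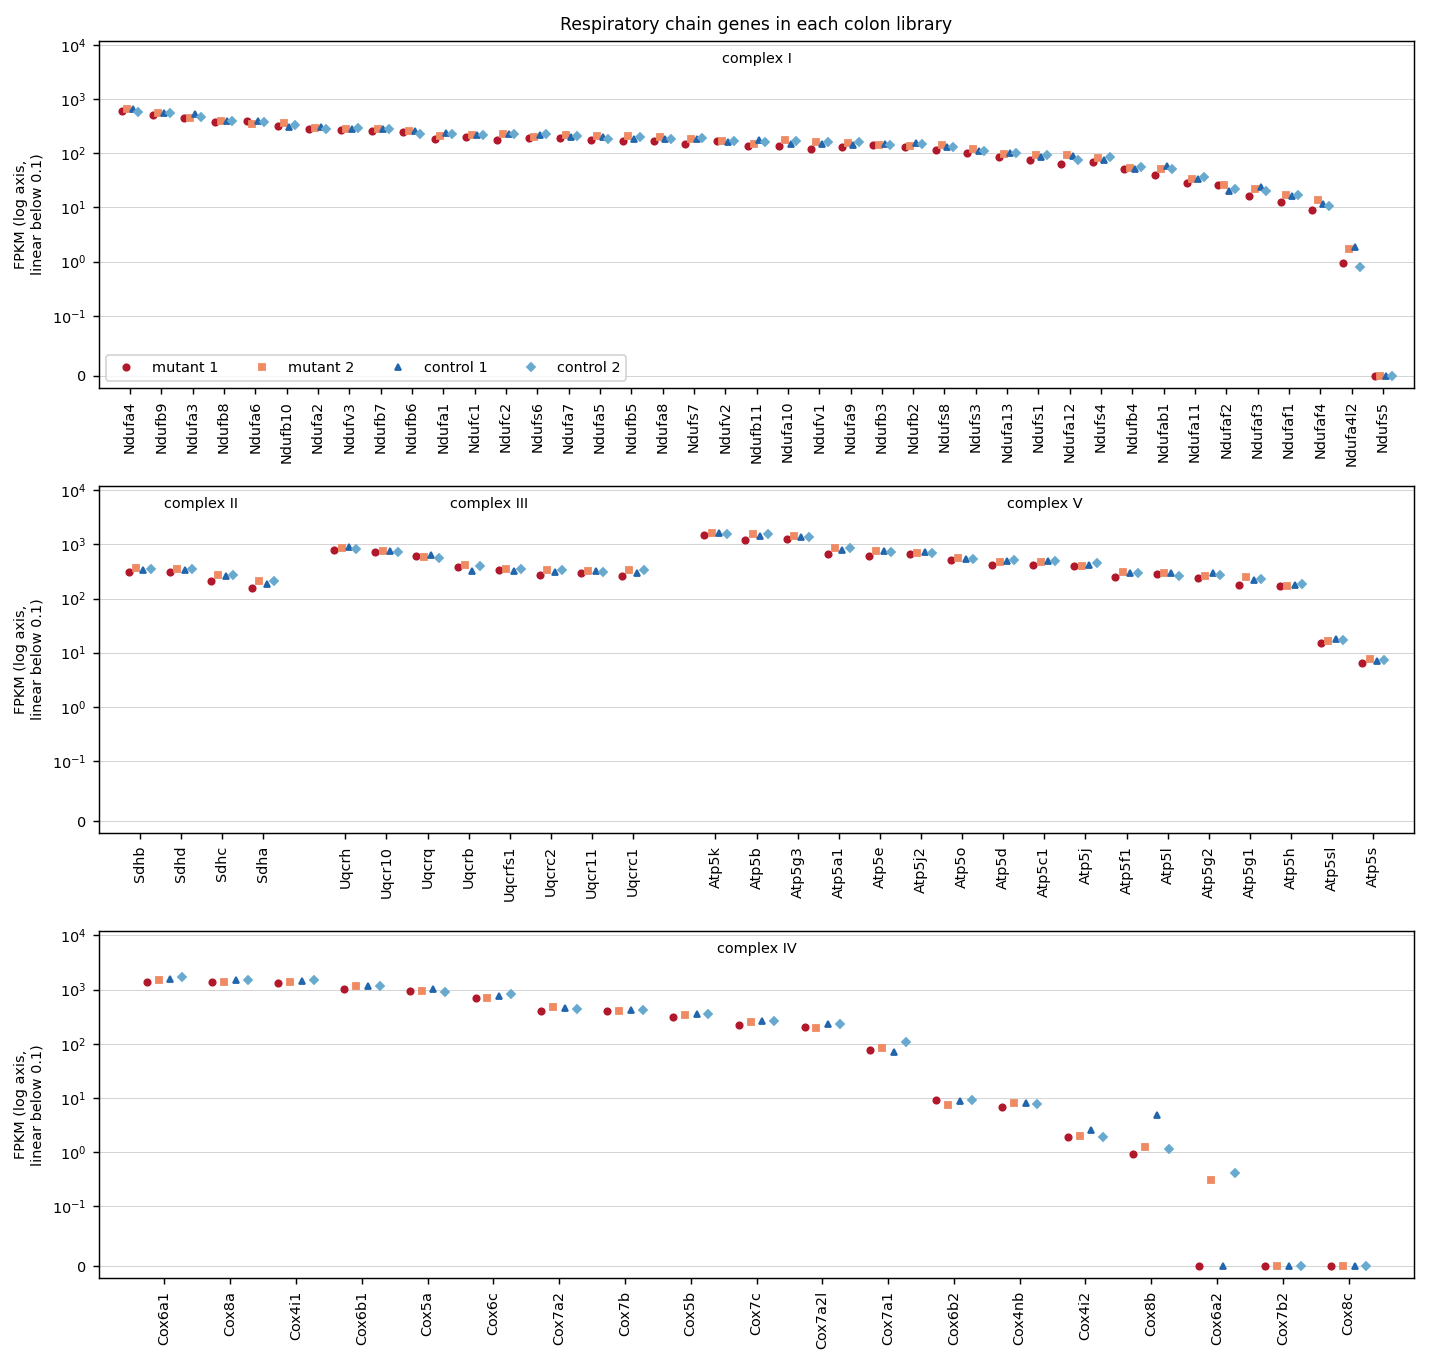
FPKM of the members in each library (vertical axis logarithmic, linear below 0.1), by complex and in order of mean level. Each point is a library, with the mutants left of the controls. The 4 points of most genes lie close together, and the genes span from listed at 0 to above 1500 FPKM.

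Summed over the 90 members, the libraries held 29013 FPKM in mutant 1 and 32047 FPKM in mutant 2, against 32065 FPKM in control 1 and 32346 FPKM in control 2. Mutant 2 therefore lay beside the controls and mutant 1 below them. The mutant mean was 0.948 of the control mean. In bulk tissue, fewer cells of a type and less RNA per cell cannot be told apart. Mutant 1 was the lowest library for 64 of 86 members (74.4%), where the share over all tested genes was 66.3%.

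The median log2 change, mutant over control on the log2(FPKM + 0.5) scale, was -0.079 over the members and -0.17 over all tested genes. Relative to all genes, the members' median was thus 0.088 higher, and 72 of 86 lay above the all-gene median. This relative value was -0.018 with no filter on low values, where the all-gene median was -0.055, and 0.047 without control 1. As deposited, 75 of 86 changes were below 0 (87.2%), close to the 82.6% of all genes. The direction changed with the scaling: 15 members were below 0 after median ratio rescaling, 27 after quantile normalization and 31 after small RNA and histone genes were left out. In the authors' deposited table, 64 members with a finite value were above 0 and 23 below. Mutant 1 decided the size of the unscaled value, since the members' median was 0.015 without mutant 1, with 40 of 86 below 0, and -0.17 without mutant 2, with 79 below 0. Against control 1 and control 2, the median member differed by -0.14 and -0.18 in mutant 1, and by 0.0090 and 0.0017 in mutant 2. Mutant 1 set against mutant 2 gave -0.16, between its values against the 2 controls.

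For 26 of 86 members (30.2%) both mutant libraries lay below both controls, where 35.1% of all tested genes did so. Ndufaf2 was the 1 member with both mutants above both controls, and 3.39% of all genes were so placed. In 59 members the groups overlapped. After median ratio rescaling, 2 members were lower without overlap, against 16.2% of genes, and 36 were higher, against 13.9%. Quantile normalization gave 5 lower and 24 higher, with gene backgrounds of 15.7% and 15.4%. Without small RNA and histone genes, 5 were lower and 27 higher, with backgrounds of 21.4% and 8.46%. With a group reduced to 1 library there is less to overlap, and the count of lower members was 40 without control 1, 40 without control 2 and 68 without mutant 2, while that of higher members was 10, 7 and 2, and 31 without mutant 1. The shares over all genes are not given for these fits, so these counts are not read as a result about the members. The median of all tested genes itself was -0.28 without mutant 2 and -0.066 without mutant 1. For 70 of 86 members (81.4%), the change was smaller than the wider gap between 2 libraries of a group, as it was for 76.9% of all genes.

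**Figure D2:**
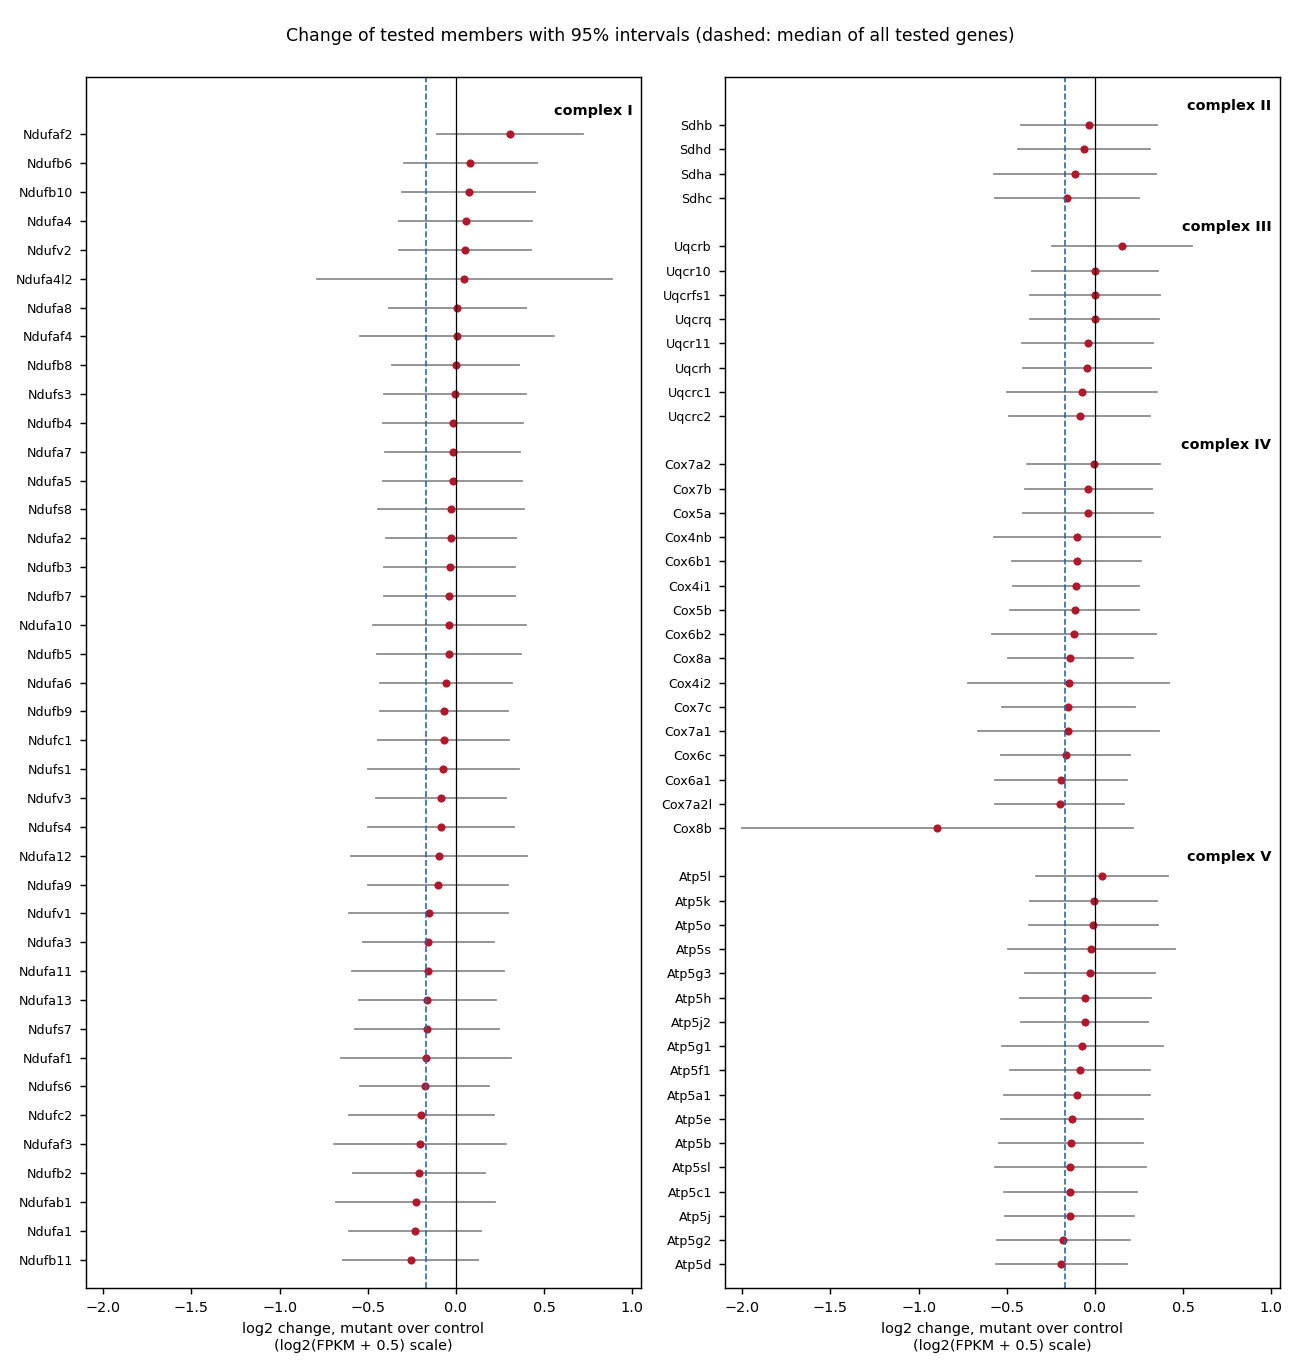
Log2 change of the tested members, mutant over control (points), with its 95% limma interval (lines), by complex. The solid line marks 0 and the dashed line the median of all tested genes, -0.17. Every interval drawn crosses 0, and Cox8b has the widest.

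Complex I is the largest complex. Its 41 tested members had a median change of -0.068, or 0.0997 above the median of all genes, and summed to 7170 and 7954 FPKM in the mutants, against 7936 and 7850 FPKM in the controls. The 28 tested accessory subunits had a median of -0.068, and 10 of them (35.7%) lay lower in both mutants without overlap, near the 35.1% of all tested genes.

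Among complex I names, Ndufa4 was the most abundant, at 604 and 667 FPKM in the mutants and 651 and 573 FPKM in the controls. Ndufb9, an accessory subunit of the membrane arm, followed at 507 and 554 FPKM in the mutants, against 551 and 560 FPKM in the controls. Ndufa3, also of the membrane arm, stood at 444 and 449 FPKM in the mutants, against 527 and 470 FPKM in the controls. Ndufb9 had a log2 change of -0.068 (95% interval -0.43 to 0.30), and Ndufa3 one of -0.16 (-0.53 to 0.21), with no overlap for Ndufa3.

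The largest positive change of complex I was that of Ndufaf2, an assembly factor that binds a late intermediate. It measured 25.6 and 26.2 FPKM in the mutants, against 19.8 and 21.9 FPKM in the controls. Both mutants were above both controls, and the log2 change was 0.31 (95% interval -0.11 to 0.72; limma, unadjusted p = 0.129, adjusted p = 0.825). The largest negative change was that of Ndufb11, an X-linked membrane-arm subunit, with 135 and 150 FPKM in the mutants, against 177 and 164 FPKM in the controls. Its log2 change was -0.26 (-0.64 to 0.13; limma, unadjusted p = 0.163), again without overlap.

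Ndufs1, which holds iron-sulfur centres of the electron-input arm, was the member with the most transcripts in the files. The transcript NM_001160038 was listed at 0.000366 and 3.17e-05 FPKM in the mutants, against 1.93 and 2.28 FPKM in the controls, where it made up 2.29% and 2.45% of the gene. Its log2 change of -2.38 had an unadjusted p of 0.00187 and an adjusted p of 0.640 over all isoforms in limma, so it was not called. Of the 14 member isoforms tested, 0 were called, against 1 of 16903 isoforms (0.00592%). The summed gene stood at 75.4 and 94.0 FPKM in the mutants and 84.1 and 93.2 FPKM in the controls, which overlap.

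Complex II, succinate dehydrogenase, also works in the tricarboxylic acid cycle and has no subunit in mitochondrial DNA. Sdha, the flavoprotein that oxidises succinate, measured 156 and 215 FPKM in the mutants and 186 and 211 FPKM in the controls. Sdhb, the iron-sulfur protein, measured 311 and 361 FPKM in the mutants and 332 and 355 FPKM in the controls. In both genes mutant 1 was lowest and mutant 2 highest. The membrane anchor Sdhc had 215 and 268 FPKM in the mutants and 262 and 275 FPKM in the controls. Sdhd, the other anchor, had 308 and 346 FPKM in the mutants and 336 and 346 FPKM in the controls. The 4 changes ran from -0.16 (Sdhc) to -0.034 (Sdhb), all overlapped, and mutant 1 was lowest in each. Over all tested genes, the groups overlapped in 8606 of 13997, and mutant 1 was lowest in 66.3%.

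On the deposited FPKM scale, complex III members stood closest to 0, with a median of -0.022, or 0.15 above that of all genes. In the authors' deposited table, their median log2 change of 0.14 was instead the farthest from 0. The other complexes ran from 0.044 (complex IV) to 0.094 (complex I) there. Complex III members had overlapping groups in 8 of 8, as did 8606 of 13997 genes in all. Their sum was 3679 and 3937 FPKM in the mutants, against 3832 and 3845 FPKM in the controls. Uqcrh, the hinge protein beside cytochrome c1, was at 795 and 853 FPKM in the mutants and 877 and 823 FPKM in the controls. Uqcr10, a small membrane subunit, was at 733 and 746 FPKM in the mutants and 752 and 726 FPKM in the controls, and its log2 change of 0.00082 had a 95% interval of -0.36 to 0.36. Uqcrq, another small subunit, had 598 and 597 FPKM in the mutants and 627 and 571 FPKM in the controls.

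Uqcrb, known as a ubiquinone-binding protein, had the largest change of complex III. It stood at 385 and 408 FPKM in the mutants and 323 and 393 FPKM in the controls, with control 1 low and the groups overlapping (log2 change 0.15, 95% interval -0.24 to 0.55). In the authors' deposited table its p of 0.160 was the smallest of any member. Uqcrc2, a core protein, had 276 and 332 FPKM in the mutants and 306 and 339 FPKM in the controls, a log2 change of -0.087.

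Of the names placed in complex IV, cytochrome c oxidase, all 16 tested had a change below 0 as deposited, against 82.6% of all tested genes. In 9 of 16 (56.3%) both mutants lay below both controls, against 35.1% of all tested genes. This count rests on the deposited scale, on which 26 members were so placed in all, against 2, 5 and 5 after the 3 rescalings. The median change was -0.13, which is 0.039 above that of all genes, and 13 of the 16 lay above the all-gene median. In the authors' deposited values, 12 of 17 (70.6%) were above 0, against 47.5% of all tested genes. The 16 were taken by name and include Cox4nb (-0.10) and Cox7a2l (-0.20, without overlap), which are not subunits. Ndufa4, now counted with complex IV, is not among them, and had a log2 change of 0.054 with overlap. The members summed to 8359 and 8828 FPKM in the mutants, against 9278 and 9411 FPKM in the controls, and this was the complex in which mutant 2 also had a median deviation below 0 (-0.021), where both controls were above it (0.056 and 0.057).

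Cox6a1, the liver-type form of a regulatory subunit, led complex IV with 1353 and 1524 FPKM in the mutants, against 1558 and 1725 FPKM in the controls. Its log2 change was -0.19 (95% interval -0.57 to 0.18; limma, unadjusted p = 0.275). Cox8a, a small subunit needed for a stable complex, followed with 1357 and 1385 FPKM in the mutants and 1519 and 1501 FPKM in the controls. Cox4i1, the common form of the subunit through which ATP inhibits the enzyme, had 1331 and 1378 FPKM in the mutants and 1442 and 1475 FPKM in the controls. In all of these, both mutants were below both controls. Their changes, from -0.19 to -0.11, differ from the all-gene median by less than 0.1.

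Cox7a2l had 202 and 196 FPKM in the mutants, against 228 and 228 FPKM in the controls, and a log2 change of -0.20 (95% interval -0.57 to 0.17; limma, unadjusted p = 0.247). Its groups did not overlap, and its own gap within each group was small.

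**Figure D3:**
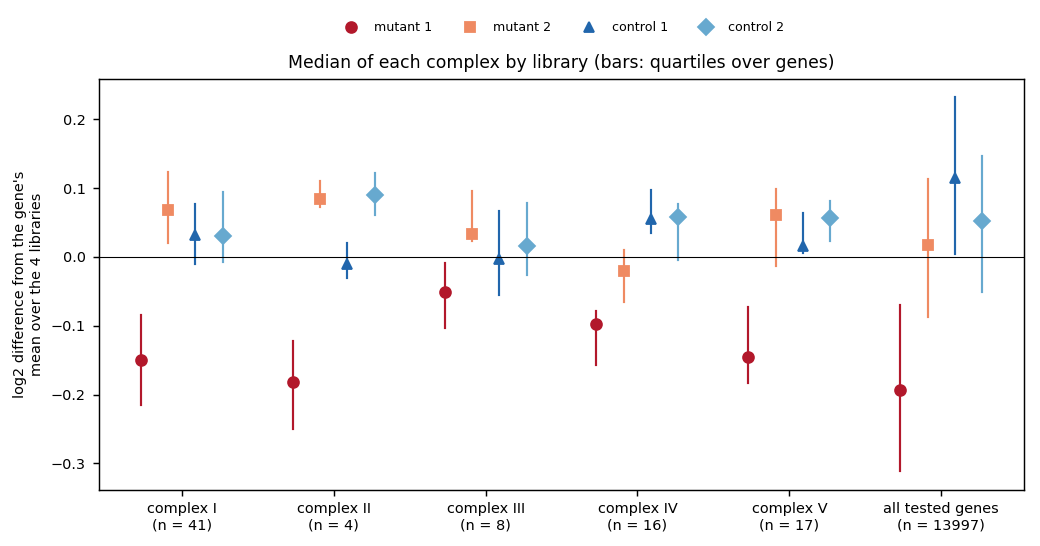
Median log2 difference of each complex from the gene's mean over the 4 libraries, by library, with quartiles over genes as bars and all tested genes at the right. Mutant 1 is lowest in every complex and over all genes. Mutant 2 is below 0 in complex IV, at -0.021, and above 0 in the other complexes.

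Several subunits of complex IV come in alternative forms encoded by separate genes. The colon carried the widely expressed form in each set. Cox4i2, the form of lung, was at 1.94 and 1.99 FPKM in the mutants and 2.57 and 1.93 FPKM in the controls, far below Cox4i1. Cox6b2, the testis form, was at 9.02 and 7.45 FPKM in the mutants and 8.90 and 8.997 FPKM in the controls. Its common partner Cox6b1 was at 1031 and 1142 FPKM in the mutants and 1171 and 1162 FPKM in the controls.

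The heart and skeletal muscle form Cox6a2 was listed at 0 in mutant 1 and control 1, at 0.305 FPKM in mutant 2 and at 0.406 FPKM in control 2, and was not tested. Cox7b2 and Cox8c, both testis forms, were listed at 0 in all 4 libraries. Cox7b, the common partner of Cox7b2, was at 405 and 409 FPKM in the mutants and 423 and 413 FPKM in the controls.

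Cox7a1, the form of heart and skeletal muscle, was the exception in level. It had 75.04 and 83.6 FPKM in the mutants and 71.4 and 108 FPKM in the controls, with control 2 high and control 1 lowest. Cox7a2, the liver-type form, had 407 and 469 FPKM in the mutants and 447 and 431 FPKM in the controls. The 10 markers of striated and heart muscle were low in the same libraries, and 4 of them reached the level needed for a test. Ckm was at 8.18 and 11.4 FPKM in the mutants and 15.8 and 13.7 FPKM in the controls, highest in control 1. Tnni2 was also highest in control 1, with 0.939 and 0.986 FPKM in the mutants and 2.03 and 1.29 FPKM in the controls. Acta1 had 3.86 and 6.26 FPKM in the mutants and 4.94 and 13.7 FPKM in the controls. It was highest in control 2, as Cox7a1 was. Actc1 went the other way, with 3.88 and 4.09 FPKM in the mutants and 2.47 and 3.19 FPKM in the controls. Myh4 was listed at 0.0984 FPKM in mutant 1 and at 0 in the other 3, and Mb was at 0.662 and 0.305 FPKM in the mutants and 0.472 and 0.209 FPKM in the controls. Myh11 of smooth muscle was at 90.8 and 108 FPKM in the mutants and 135 and 123 FPKM in the controls. Of the 8 smooth muscle markers, 7 had a change below 0. The other, Actg2, was at 376 and 449 FPKM in the mutants and 406 and 369 FPKM in the controls. The part of muscle in the Cox7a1 values was not tested.

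Cox8b, a form of heart, skeletal muscle and brown fat in rodents, had the largest fitted change of any member, from few fragments. It was at 0.933 and 1.26 FPKM in the mutants and 4.76 and 1.15 FPKM in the controls. Control 1 alone was high, and the other 3 lay together, with mutant 2 above control 2. The log2 change was -0.89 (95% interval -2.001 to 0.215; limma, unadjusted p = 0.101, adjusted p = 0.825). Fragments implied were 1 and 3 in the mutants and 11 and 3 in the controls. In the authors' deposited table, mean counts were 5.35 in the mutants and 5.48 in the controls, a log2 change of -0.034. Without control 2, which leaves control 1 alone in its group and assumes that it varies like the other group, Cox8b was called at a log2 change of -1.73 (limma, adjusted p = 0.000359). The brown fat gene Ucp1 was listed at 0.0449 FPKM in mutant 2 and at 0 in the other 3. The 10 markers of striated and heart muscle, of which 4 were tested, summed to 19.2 and 23.5 FPKM in the mutants and 26.1 and 32.8 FPKM in the controls, highest in control 2. The 6 B cell markers, all tested, summed to 14.3 and 11.9 FPKM in the mutants and 133 and 9.996 FPKM in the controls, so control 1 also stood apart there. None of the 6 was called, and the part of these cells in the Cox8b value was not tested.

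**Figure D4:**
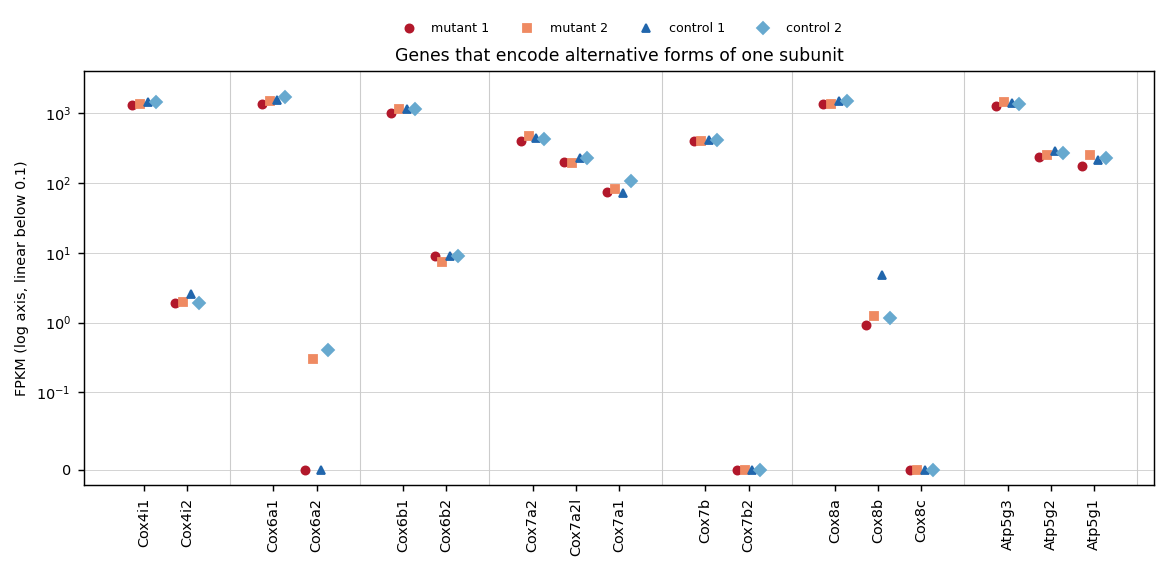
FPKM in each library of genes that encode alternative forms of a subunit (vertical axis logarithmic, linear below 0.1), with the mutants left of the controls. The widely expressed form leads each complex IV set. Cox7a1 is the tissue form with the highest level, and Cox8b is set apart by control 1 at 4.76 FPKM.

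Complex V had a median change of -0.084, or 0.083 above that of all genes. Its 17 members summed to 8814 and 10138 FPKM in the mutants, against 9901 and 10054 FPKM in the controls. Atp5k encodes subunit e of the membrane part and takes part in joining ATP synthases into dimers. By FPKM it was the most abundant of all members, with 1514 and 1654 FPKM in the mutants and 1599 and 1582 FPKM in the controls. The deposited counts and FPKM differ on its level, as given below. Atp5b, the catalytic beta subunit, had 1201 and 1525 FPKM in the mutants and 1428 and 1545 FPKM in the controls, with mutant 1 low. Atp5d, the delta subunit of the central stalk, showed the largest change of the complex, with 415 and 465 FPKM in the mutants and 490 and 513 FPKM in the controls. Its groups did not overlap, and the log2 change was -0.19 (95% interval -0.56 to 0.18; limma, unadjusted p = 0.272).

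The c ring, which turns as protons pass, is built from a subunit that 3 genes encode. Atp5g1 (chr11:95934107-95937008), Atp5g2 (chr15:102493299-102501478) and Atp5g3 (chr2:73746507-73749351, all mm9) differ in the leader that targets the protein to mitochondria, and their last 75 codons encode the same residues. These last 225 coding bases are shown, 5′ to 3′ and without the stop codon, because they show which bases can tell the transcripts apart. Capitals mark the positions at which the 3 genes are not all alike (GENCODE vM1 transcripts on mm9):
Atp5g1: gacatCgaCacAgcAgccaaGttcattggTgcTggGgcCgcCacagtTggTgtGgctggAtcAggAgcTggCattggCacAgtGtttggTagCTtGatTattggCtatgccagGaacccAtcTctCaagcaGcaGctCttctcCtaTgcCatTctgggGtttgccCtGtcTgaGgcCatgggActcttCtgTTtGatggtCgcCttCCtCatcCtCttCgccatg
Atp5g2: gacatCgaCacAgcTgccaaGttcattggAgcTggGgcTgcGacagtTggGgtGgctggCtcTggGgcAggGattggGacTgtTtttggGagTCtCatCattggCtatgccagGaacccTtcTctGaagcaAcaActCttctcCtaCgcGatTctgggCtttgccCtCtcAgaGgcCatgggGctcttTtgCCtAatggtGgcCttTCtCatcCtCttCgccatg
Atp5g3: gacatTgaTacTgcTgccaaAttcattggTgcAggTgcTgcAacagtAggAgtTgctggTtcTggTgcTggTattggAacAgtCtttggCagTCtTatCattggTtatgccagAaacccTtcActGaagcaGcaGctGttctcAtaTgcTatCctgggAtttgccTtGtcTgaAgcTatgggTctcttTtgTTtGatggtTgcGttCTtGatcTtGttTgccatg

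The genes shared 168 of the 225 bases and differed at 57, with no change of residue at 75 of 75 codons. Pairwise identity was 84.9% between Atp5g1 and Atp5g2, 80% between Atp5g1 and Atp5g3, and 78.7% between Atp5g2 and Atp5g3. Atp5g3 was the most abundant, at 1273 and 1449 FPKM in the mutants and 1396 and 1374 FPKM in the controls. Atp5g2 was at 235 and 257 FPKM in the mutants and 290 and 267 FPKM in the controls, without overlap between the groups. Atp5g1 was at 179 and 251 FPKM in the mutants and 218 and 228 FPKM in the controls. In FPKM the order was Atp5g3, Atp5g2, Atp5g1 in all 4 libraries, with the smallest distance between Atp5g2 and Atp5g1 in mutant 2. The authors' deposited table places Atp5g2 below Atp5g1. Mean normalized counts there were 69.4 in the mutants and 48.5 in the controls for Atp5g2, against 829 and 854 for Atp5g1. The order of Atp5g2 and Atp5g1 is therefore uncertain.

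A near-identical copy elsewhere in the genome can share reads with a gene, and how such reads were assigned is not given in the sources used here. A search of mm9 with the coding sequence of each member found a copy of at least 98% identity over at least 80% of its length, outside the gene itself, for 14 members. These were Atp5f1, Atp5g1, Atp5g2, Atp5h, Atp5l, Cox5b, Cox7c, Ndufa12, Ndufab1, Ndufb4, Ndufs3, Ndufs5, Uqcr11 and Uqcrb. Ndufs5, an accessory subunit of complex I, was listed at about 0 in all 4 libraries, and the authors' deposited table gives it a mean normalized count of 0 in both groups. Its copy lies at chr16:42955744-42956064 (mm9), spans 321 bases and is 99.4% identical. A value listed at 0 in files without counts can be a failed estimate, so no level is given for Ndufs5.

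The deposited counts can be set against the deposited FPKM, as the mean normalized count per FPKM and kilobase relative to other genes of like length, with 1 when both files tell the same level. Members without a copy had a median of 0.988, and 2 of 73 were under 0.8 (Cox7a2l at 0.596 and Ndufv3 at 0.706). Members with a copy had a median of 0.615, and 9 of 13 were under 0.8. Atp5l, subunit g of the ATP synthase, was lowest at 0.0266, Atp5g2 was at 0.0374, Cox7c, a small subunit of complex IV, at 0.173 and Ndufb4, an accessory subunit of complex I, at 0.208. These 4 of 86 members (4.65%) were under 0.25, as were 2.27% of all tested genes. The deposited files thus differ on the levels of these 4 genes, and of those named as well above 1, so these levels are uncertain. Whether reads shared with copies account for the low values was not tested. Median log2 changes were -0.071 in members with a copy and -0.085 in those without.

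**Figure D5:**
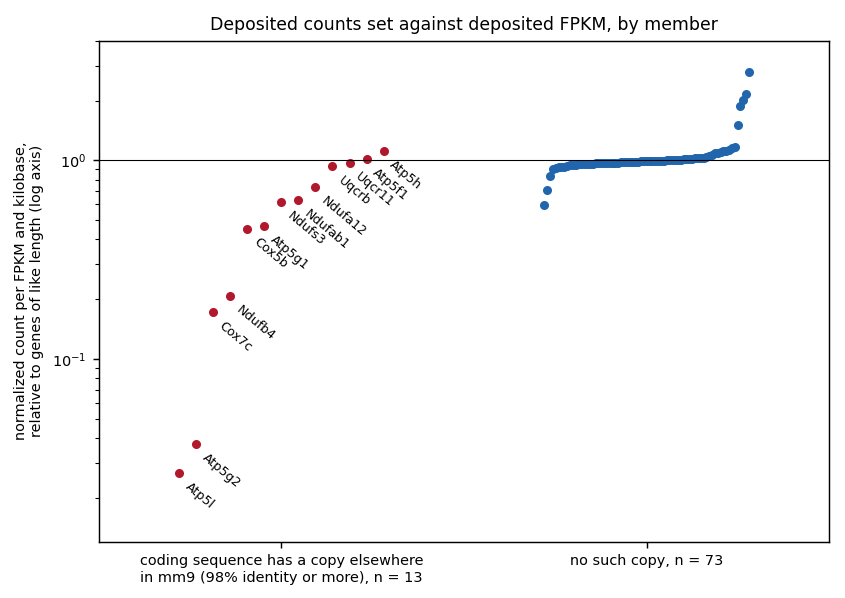
Mean normalized count of the authors' deposited table per FPKM and kilobase, relative to genes of like length (logarithmic axis), for members with and without a near-identical copy of the coding sequence in mm9. Each point is a member. Atp5l and Atp5g2 lie under 0.05, and most members without a copy lie near 1.

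Promoters of respiratory chain genes are known for sites of NRF1 and of ETS-family factors such as GABP, and YY1 also acts on some of them. Start regions from 250 bases before to 50 after the RefSeq start (GRCm38.p6) were at hand for 74 of 90 members, with 80 windows. Both strands were searched, and no window held overlapping matches of different motifs. The NRF1 letters (GCGCA, any base, GCGC) were found in 18 of 74 members (24.3%), against 5.19% of 27025 genes. The ETS letters CCGGAAG were in 17 (23.0%), against 9.93% of genes, and the YY1 letters AAGATGGCG in 8 (10.8%), against 1.64%. At least 1 of these was in 37 members (50%), against 15.1% of genes. The ERR letters TCAAGGTCA were in 2 members (2.70%), against 0.466%, and TATAAA in 7 (9.46%), against 15.7%. A match describes letters in the window and does not show that a factor binds.

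The windows of the most abundant members of complexes IV and V are shown beside those of the tissue forms Cox7a1 and Cox8b, as examples with and without these letters, chosen after the matches were seen. The lack is not particular to tissue forms: Cox5a, Cox5b, Cox7a2, Cox7b, Cox7c and Atp5b hold none of the NRF1, ETS or YY1 letters either. Capitals mark NRF1 and ETS matches (either strand), and Cox7a1 and Cox8b have none of the NRF1, ETS or YY1 letters. Coordinates are chr5:115348909-115349208 on the minus strand for Cox6a1, chr5:108434350-108434649 on the minus strand for Atp5k, chr7:30183921-30184220 on the plus strand for Cox7a1 and chr7:140900397-140900696 on the minus strand for Cox8b (all GRCm38.p6):
Cox6a1: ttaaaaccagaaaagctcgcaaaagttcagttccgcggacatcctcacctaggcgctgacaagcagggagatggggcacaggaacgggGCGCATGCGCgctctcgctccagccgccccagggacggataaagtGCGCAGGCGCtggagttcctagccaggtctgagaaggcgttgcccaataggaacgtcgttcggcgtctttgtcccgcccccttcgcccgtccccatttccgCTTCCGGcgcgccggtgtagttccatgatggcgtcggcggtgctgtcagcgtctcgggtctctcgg
Atp5k: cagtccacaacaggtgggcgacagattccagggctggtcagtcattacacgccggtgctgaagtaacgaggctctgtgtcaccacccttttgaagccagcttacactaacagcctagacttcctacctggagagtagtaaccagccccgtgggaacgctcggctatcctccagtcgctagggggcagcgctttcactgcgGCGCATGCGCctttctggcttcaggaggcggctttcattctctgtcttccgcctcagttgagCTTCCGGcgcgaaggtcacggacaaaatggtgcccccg
Cox7a1: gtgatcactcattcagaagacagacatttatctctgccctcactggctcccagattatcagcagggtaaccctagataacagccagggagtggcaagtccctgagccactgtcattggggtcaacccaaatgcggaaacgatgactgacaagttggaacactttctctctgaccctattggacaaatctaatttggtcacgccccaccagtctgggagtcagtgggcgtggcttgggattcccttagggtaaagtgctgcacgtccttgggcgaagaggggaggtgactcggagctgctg
Cox8b: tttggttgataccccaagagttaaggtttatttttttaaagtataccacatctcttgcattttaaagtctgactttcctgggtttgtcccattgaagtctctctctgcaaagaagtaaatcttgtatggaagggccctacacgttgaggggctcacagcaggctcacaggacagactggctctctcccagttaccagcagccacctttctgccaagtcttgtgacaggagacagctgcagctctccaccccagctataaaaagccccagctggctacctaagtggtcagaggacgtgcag

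No member was called, with the letters or without. The median log2 change was -0.057 in 17 tested members with the NRF1 letters and -0.085 in 55 without. For the ETS letters it was -0.045 in 17 and -0.085 in 55. For the YY1 letters it was -0.12 in 8 and -0.060 in 64. All of these lie above the -0.17 of all tested genes, as deposited.

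Among regulators of mitochondrial genes, 0 of 14 were called and 13 had a change below 0, against 82.6% of all tested genes. Their median was -0.22, against -0.17 over all tested genes. Esrra, which binds the ERR letters, had 77.3 and 86.4 FPKM in the mutants and 81.2 and 81.3 FPKM in the controls. Ppargc1a, the coactivator known for driving mitochondrial biogenesis, had 3.48 and 3.59 FPKM in the mutants and 3.69 and 6.29 FPKM in the controls, with control 2 high.

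Other lists of mitochondrial and energy genes held no called gene either. Over all tested genes, 82.6% had a change below 0 and the median was -0.17. Electron carriers outside the naming rule (Cyc1, Cycs, Etfa, Etfb and Etfdh) had a median change of -0.085, with 3 of 5 below 0. Cyc1, the cytochrome c1 of complex III, had 381 and 469 FPKM in the mutants and 405 and 432 FPKM in the controls. The 28 assembly factors found outside the rule had a median of -0.11, with 23 below 0. In the tricarboxylic acid cycle, 17 of 17 genes were below 0, with a median of -0.13, which is 0.041 above that of all genes. The groups overlapped in 15 of them, and in 8606 of 13997 genes in all. Medians were -0.062 over 20 genes of the mitochondrial membranes and import, -0.057 over 76 of the mitochondrial ribosome and -0.064 over 18 of glycolysis. These medians lie in the range of the 5 complexes, -0.13 to -0.022, except that of the regulators.

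The spread between libraries was narrower in these genes than over all genes, but their level was also higher, with a median of 227 FPKM. Tested genes that averaged 100 FPKM or more had a median standard error of 0.176, near the 0.166 of the members. Over the 80 members with at least 10 FPKM, the median coefficient of variation was 7.65% in the mutants and 4.52% in the controls. Over 6902 genes at that level it was 13.6% in the mutants and 7.24% in the controls. By transcript length, the members' median changes were -0.057 in 34 tested members under 600 bases, against -0.075 in 364 genes of that length, and -0.0996 in 29 of 1000 bases or more, against -0.17 in 12757 genes. Tested genes that averaged 100 FPKM or more had a median of -0.14.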

How the data were processed

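Per the labels' protocols, TruSeq RNA libraries were made from total RNA. Tools named in the submitters' processing notes are TopHat, Cufflinks, DESeq and bcl2fastq 1.8.4, with build mm9. Per the file headers, the authors gave FPKM with an interval and a status per gene and isoform, and coverage signal per isoform. The authors' deposited table holds each group's normalized counts as a mean (a signal), the fold change as a ratio, its log2 value, and p-values. Columns of unmapped samples: 0.

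Rows not OK in any 1 library (306 of 23699, no member) were left out, symbols were summed (23074), and genes averaging 0.5 FPKM or more were kept. limma 3.58.1 under R 4.3.3, with its trend option, was fitted to log2(FPKM + 0.5), and p-values were adjusted over 13997 genes (Benjamini-Hochberg). Intervals cover 95%. Depth is not stated and was taken from the ratio of coverage to FPKM. Implied fragments cover counting error only. Copies were searched with blastn 2.17.0. The fit was tested on simulated data whose changes were larger than those fitted for the members, without a shift of a whole library. That test does not show how the fit handles smaller changes.

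Members and lists were chosen with earlier results of these data known. Named members are those called (none), the 3 most abundant and the 2 with the largest change of each complex, the sets of alternative forms, and the untested members. Names outside this rule (Ndufs1, Atp5l, Cox7c, Ndufb2, Ndufb4, Ndufv3 and the listed classes) were chosen after their values were seen. Some single-gene results are not reported here.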

Additional observations from a re-analysis of the deposited data

How the results depend on the processing

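The count of members called stayed at 0 under the other pseudocounts, filters, scalings, variance model, row handling, the replicate block and the authors' deposited table, and was 0 to 1 with 1 library left out (Cox8b, without control 2). The count over all genes, 9, became 0 with no filter on low values, 3 after median ratio rescaling, 2 after quantile normalization, 0 without small RNA and histone genes and 8 to 356 with 1 library left out. An unadjusted p under 0.05 in limma was found in 4 members with no filter, where 90 members were tested in place of 86. It was found in 1 member under each of the 3 rescalings and the replicate block, and in 0 under the other limma fits to all 4 libraries. The shares over all genes are not given for these fits, so these counts are not read as a result about the members. Replicate numbers are shared by the groups' labels. Deviations of same-numbered libraries correlated at -0.0022 over 13997 genes. Each group gives only 1 such difference, so this cannot tell whether the libraries are paired. The replicate block called 195 genes and 0 members. Members lower without overlap numbered 26, and 2, 5 and 5 under median ratio, quantile and small RNA removal, and 28 to 68 with 1 library left out. Members higher without overlap numbered 1, and 36, 24 and 27 under those scalings, and 2 to 31 with 1 library left out. No such count exists for the authors' table, which has no values per library. Shares over all genes are not given for the counts with 1 library left out. The members' median of -0.079 became 0.095, 0.052 and 0.040 under the 3 rescalings and 0.084 in the authors' table, with a range of -0.17 to 0.015 over libraries left out. Relative to all genes, the median of 0.088 became -0.018 with no filter, which adds genes near 0 FPKM, and ran from 0.047 to 0.12 with 1 library left out. With no filter, complex I was at -0.0073, II at -0.032, III at 0.034, IV at -0.060 and V at -0.029. Quantile normalization gave 0.062 for complex I and 0.028 for complex V. With 1 library left out, complex I ran from 0.059 to 0.13 and complex V from 0.032 to 0.14. Over 16 alternatives, 90 of 496 changes of named members turned sign: 20 under median ratio, 14 each under quantile and small RNA removal, 20 in the authors' table, 22 with a library left out and 0 under the rest. Mutant 1 has 0.464 of the depth of control 1.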
